A study of Mus musculus with 4 samples.

Results

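The 10 genes described here belong to the TGF-beta pathway and were followed in mouse regulatory T cells (Treg cells): the ligand genes Tgfb1 and Tgfb3, the latency protein gene Ltbp1, the receptor genes Tgfbr1 and Tgfbr2, the signal transducers Smad2 and Smad3, the inhibitory SMAD gene Smad7, and the corepressor genes Ski and Skil. All probe sets that the platform annotation assigns to these 10 genes were taken, which gave 23 probe sets, each assigned to a single gene, out of 45037 on the array and 18194 genes with a symbol. The array data came from CD4 T cells expressing Foxp3 in the spleen of C57BL/6 mice. There were 4 arrays in 2 numbered pairs, and each pair held 1 wild-type array and 1 array whose title calls the cells deficient in Foxo1 and Foxo3, the transcription factors that PI3K and AKT signalling keeps out of the nucleus. The genotype field of the latter arrays names Foxo1 alone. The age of the mice and the allele or Cre line behind the deficiency are not stated in the labels. Nor do the labels say whether arrays of 1 label are from separate animals. The p-values therefore rest only on the spread between these arrays, pooled in part across genes, and not on a known spread between mice.

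TGF-beta is secreted in a latent form, folded inside its own propeptide and often tied to a latent TGF-beta binding protein such as LTBP1. Once released it binds the type II receptor TGFBR2, which recruits and activates the type I receptor TGFBR1, and this phosphorylates SMAD2 and SMAD3. These enter the nucleus with SMAD4, while SMAD7 blocks the receptor and SKI and SKIL (SnoN) hold SMAD targets repressed. In T cells the pathway restrains Th1 and cytotoxic differentiation and helps to induce and maintain Foxp3.

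Foxo1 itself was not lower on the arrays titled deficient. Its brightest probe set read 2383 and 1254 in wild-type against 6949 and 6697 in the other cells (log2 difference 1.97, limma adjusted p = 0.0209), while that of Foxo3 read 1876 and 2635 against 1424 and 1308 (adjusted p = 0.241). These arrays are therefore called labelled-deficient throughout, and every direction is that of the labels. Signals are MAS5 values on a linear scale with the same trimmed mean on all arrays. The T cell and Treg markers Foxp3, Il2ra, Ctla4, Ikzf2, Cd4, Cd3d, Cd3e and Cd3g all read between 1456 and 17387 on every array, and 0 of these 8 were called by limma, with 0 at an unadjusted p under 0.05. Differences are given as log2(signal + 17), which understates the change of dim genes. A gene is called at a Benjamini-Hochberg adjusted p under 0.05 over 12115 genes, each read from its brightest probe set, and the SE is that of the limma fit. With 2 arrays against 2, the smallest p of an exact test is 0.333, so each call leans on the variance shared across genes.

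Among the 10 members, Ltbp1 and Tgfb3 fell on the labelled-deficient arrays and none rose past the threshold. These are 2 of 10 genes, while 2.57% of all genes tested were called in either direction and 1.35% were called lower. Ltbp1 passed the filter on dim values, a signal of about 40.5, only through its wild-type arrays. Tgfb3 lay just under the threshold (limma adjusted p = 0.0492). The members were chosen with earlier results of these data known, so their share of calls is a description and no evidence of enrichment. At an unadjusted limma p under 0.05, 3 members were lower and 1 was higher, where 7.05% of all genes were lower and 5.93% higher. With the pair number as a block, the calls became 3 lower (Ltbp1, Tgfb3 and Smad3) and 1 higher (Smad7), against 11.6% of all genes in either direction. Each gene's own spread counts for less in that fit, which leans even more on the variance shared across genes. The 2 arrays of one label lay beyond both arrays of the other for 7 members, 4 of them higher and 3 lower, where 41.1% of all genes did so (20.0% higher and 21.1% lower). At least 2-fold in both pairs, Smad7 was higher and Ltbp1 and Tgfb3 were lower, as were 2.06% and 2.32% of all genes. The sign was the same in both pairs for 9 members, against 62.6% of all genes, and Tgfb1 was the exception. The median log2 difference was 0.02 over the members and -0.003 over all genes, so the members did not share a direction.

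**Figure D1:**
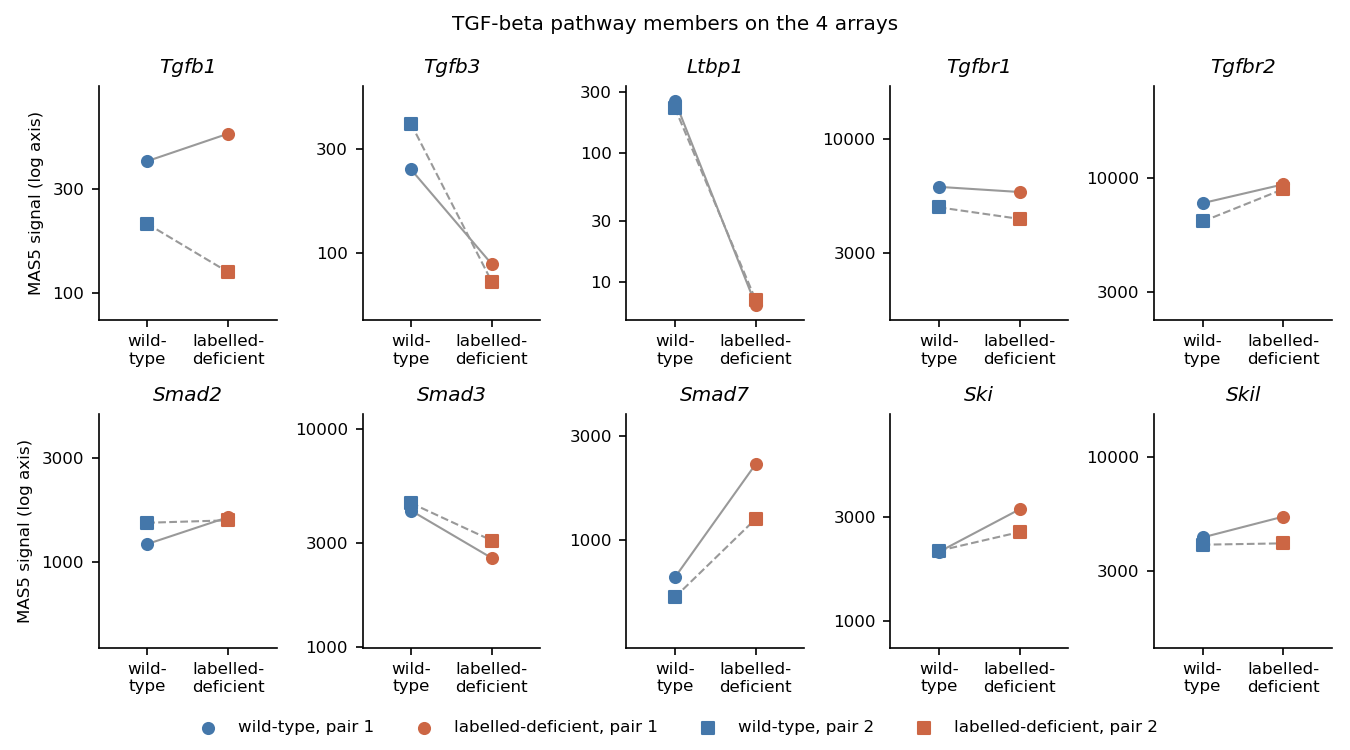
MAS5 signal (log axis, a separate range in each panel) of the 10 member genes, each read from its brightest probe set, on the 2 wild-type and 2 labelled-deficient arrays; circles and solid lines are pair 1, squares and dashed lines pair 2. Ltbp1 goes from 256 and 225 to 6.66 and 7.26, the 2 lines of Smad7 run up from 672 and 544 to 2226 and 1247, and the lines of Tgfb1 run in opposite directions.

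The latency protein gene showed the greatest difference of the members. Ltbp1 encodes an extracellular protein that binds the latent TGF-beta complex and anchors it in the matrix. Its brightest probe set, 1448870_at, read 256 and 225 in wild-type and 6.66 and 7.26 in labelled-deficient cells. Both labelled-deficient values were thus far below both wild-type values and close to each other. The mean went from 240 ± 21.9 to 6.96 ± 0.43 (SD, n = 2 each), a log2 difference of -3.42 ± 0.35 (limma adjusted p = 0.00566; 95% interval -4.24 to -2.60). The probe set passed the filter on dim values, a signal of about 40.5, only through its wild-type arrays, and the labelled-deficient values lie under it. The size of the difference therefore depends on the pseudocount: it was -4.92 with a pseudocount of 1 and -1.93 with 76, both outside that interval and both called. With the filter's signal in place of the labelled-deficient one, the wild-type mean was at least 5.94-fold higher. Leaving out any 1 array gave log2 differences between -3.51 and -3.34, with the filter and the probe set still chosen on all 4 arrays. Testing genes without the filter kept the call (limma adjusted p = 0.0282). Testing probe sets without the filter did not (limma adjusted p = 0.0590).

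A second Ltbp1 probe set, 1447547_at, went the same way at lower signal. It read 38.9 and 26.7 in wild-type and 1.61 and 2.28 in labelled-deficient cells. The remaining one, 1419786_at, did not separate the labels, with 52.7 and 5.08 against 29.2 and 31.9. Both of these were too dim to be tested. In RNA from whole populations, fewer cells that make a transcript and less transcript per cell cannot be told apart. Ltbp1 is also made by platelets and stromal cells, so their markers are set beside it. Of 12 platelet and megakaryocyte markers 9 were tested and 0 were called with or without the pair as a block. Their summed signal was 2353 to 3476 on the wild-type and 2630 to 2904 on the labelled-deficient arrays, most of it from Itgb3. Of the 9, 4 lay above 0 and 5 below. The defining marker Pf4 was lower on both labelled-deficient arrays, at 92.1 and 111 against 66.8 and 71.4 (-0.46, limma adjusted p = 0.708), and so was Itga2b, at 213 and 224 against 165 and 189 (-0.28, adjusted p = 0.826). Gp6 went the other way without overlap, at 38.6 and 35.6 against 64.7 and 48.8 (0.44, limma adjusted p = 0.772). Only 3 of 10 stromal markers were bright enough to test, with a summed signal of 159 to 187 against 174 to 246, and 0 were called. The summed signals overlapped between the labels for both lists, and no tested marker of either had an unadjusted limma p under 0.05.

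Because Ltbp1 moved most, the sequence before its transcription starts is shown. RefSeq (GRCm38.p6) gives 2 Ltbp1 windows, both on the plus strand of chromosome 17 and far apart, each printed as the 250 bases before a start, 5′ to 3′, with the SMAD letters CAGACA or their reverse complement TGTCTG in capitals where present.
Ltbp1 upstream start, chr17:75005279-75005528: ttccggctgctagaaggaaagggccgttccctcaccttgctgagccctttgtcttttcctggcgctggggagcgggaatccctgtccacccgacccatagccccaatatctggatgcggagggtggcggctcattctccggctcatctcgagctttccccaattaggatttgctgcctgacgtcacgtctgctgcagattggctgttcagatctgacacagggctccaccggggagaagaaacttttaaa
Ltbp1 downstream start, chr17:75178531-75178780: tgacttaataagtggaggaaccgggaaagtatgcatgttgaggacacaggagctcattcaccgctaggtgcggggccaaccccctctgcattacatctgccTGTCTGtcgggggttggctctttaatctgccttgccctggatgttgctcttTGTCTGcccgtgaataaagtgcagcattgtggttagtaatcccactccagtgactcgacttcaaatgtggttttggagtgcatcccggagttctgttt

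The downstream window holds the SMAD letters at 2 places, and the upstream window holds none. Both strands of windows running from 250 bases before to 50 after a start were searched for literal matches. CAGACA occurs in 21.0% of all 32817 windows, and GTCTAGAC, the SMAD palindrome, in 0.213%. The FoxO letters GTAAACA occur in 3.65% and their core TAAACA, which lies within GTAAACA, in 13.4%. Windows of 6 members were searched: Ltbp1, Ski, Smad3, Tgfb1, Tgfbr1 and Tgfbr2, with 8 windows in all. CAGACA was found in 2 of the 8, the Ltbp1 window and 1 of the Tgfbr1 windows. Neither the FoxO letters nor the SMAD palindrome was found in these 8. Windows of the other members, Tgfb3, Smad2, Smad7 and Skil, were not used here, so these absences say nothing about those 4 genes. A match is a description of letters and not a binding site, and the sources used here do not say which of the Ltbp1 starts the probe sets read.

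Of the 2 ligand genes, Tgfb3 fell and Tgfb1 was not called. Tgfb3 encodes TGF-beta3, an isoform that T cells can make besides TGF-beta1. Its only probe set read 241 and 390 in wild-type and 88.5 and 73.5 in labelled-deficient cells, so that the labels did not overlap. The mean went from 316 ± 106 to 81.0 ± 10.6 (SD, n = 2 each), a log2 difference of -1.73 ± 0.35 (limma adjusted p = 0.0492), or 3.32-fold lower on that scale. The ratio of wild-type to labelled-deficient was 2.72 in pair 1 and 5.31 in pair 2. The adjusted p lay just under the threshold: it was 0.00166 with the pair as a block, 0.147 with no filter and 0.0774 with no intensity trend. It was 0.0999, 0.136 and 0.123 without labelled-deficient replicate 1, labelled-deficient replicate 2 or wild-type replicate 2, and 0.0104 without wild-type replicate 1.

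Tgfb1, which encodes the main TGF-beta of the immune system, showed no common direction. Its brighter probe set read 405 and 209 in wild-type and 541 and 125 in labelled-deficient cells. The labelled-deficient array was thus higher than its partner in pair 1 (ratio 1.34) and lower in pair 2 (0.600). On this probe set the signal in pair 1 was 1.94 times that in pair 2 on the wild-type and 4.32 times on the labelled-deficient arrays. The difference was -0.13 ± 0.62 (limma adjusted p = 0.983; 95% interval -1.56 to 1.30), so changes of over 2-fold either way lie within the interval. The second probe set, 1445360_at, likewise went up in pair 1 (90.6 to 123) and down in pair 2 (148 to 102), but its wild-type value was higher in pair 2 than in pair 1.

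Neither receptor gene was called, and the bright probe set of Tgfbr2 was higher by less than 1.5-fold. Tgfbr2 encodes the ligand-binding type II receptor. Probe set 1426397_at read 7689 and 6335 in wild-type and 9380 and 8921 in labelled-deficient cells, without overlap. The difference was 0.39 ± 0.18 (limma adjusted p = 0.444; 95% interval -0.03 to 0.81). A dim Tgfbr2 probe set, 1425444_a_at, differed by more, at 29.8 and 33.0 against 150 and 129. It passed the filter on dim values only through its labelled-deficient arrays, and its log2 difference went from 1.003 to 2.11 as the pseudocount went from 76 to 1. With the filter's signal in place of the wild-type one, the labelled-deficient mean was at least 3.45-fold higher. The mean of the probe sets that passed, this dim one included, gave the gene a difference of 1.04 with a limma adjusted p of 0.0467. The last, 1422019_at, stayed between 4.80 and 17.6.

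Tgfbr1 encodes the type I receptor kinase that phosphorylates SMAD2 and SMAD3. Its bright probe set read 6057 and 4879 in wild-type and 5736 and 4316 in labelled-deficient cells, and the labels overlapped. The difference was -0.13 ± 0.22 (limma adjusted p = 0.923; 95% interval -0.64 to 0.38), and its sign turned on the mean of the probe sets (0.04) and on the first-listed one (0.21). The 2 other Tgfbr1 probe sets were dim, 1420893_a_at at 17.1 to 88.8 and 1420894_at from 32.8 upward, and overlapped too.

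The 2 receptor-activated SMAD genes had differences of opposite sign, and neither was called without the pair as a block. With the block Smad3 was called and Smad2 was not (limma adjusted p = 0.525 for Smad2). Smad3 encodes the transducer that binds DNA directly and, in T cells, acts at Foxp3 and Il2. Its bright probe set, 1454960_at, read 4230 and 4576 in wild-type and 2559 and 3083 in labelled-deficient cells, with no overlap. The difference was -0.64 ± 0.20 (limma adjusted p = 0.179, and 0.00830 with the pair as a block), and the wild-type signal was 1.65 and 1.48 times the labelled-deficient one within the pairs. Over probe sets the blocked adjusted p was 0.0517. A dimmer one, 1450472_s_at, went the same way by less, at 93.9 and 71.6 against 78.6 and 54.7 (-0.26 ± 0.37, adjusted p = 0.927), and 1450471_at, at 8.60 to 39.5, was too dim to test.

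Smad2 encodes the partner transducer that shares the same receptor. It read 1210 and 1515 in wild-type and 1607 and 1555 in labelled-deficient cells, a difference of 0.22 ± 0.23 (limma adjusted p = 0.820; 95% interval -0.30 to 0.75). Both labelled-deficient values lay above both wild-type values, by less than the wild-type arrays differed from each other. The other Smad2 probe set, at 138 and 254 against 182 and 198, overlapped, with a difference of 0.01 ± 0.37. Whether Smad2 and Smad3 responded differently was not tested.

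Smad7 encodes the inhibitory SMAD that recruits ubiquitin ligases to the receptor and is itself switched on by TGF-beta. Among the members as read from their brightest probe sets, it had the greatest difference upward. Probe set 1423389_at read 672 and 544 in wild-type and 2226 and 1247 in labelled-deficient cells, so that both labelled-deficient values were above both others. The means were 608 ± 90.0 and 1736 ± 692 (SD, n = 2 each), a difference of 1.44 ± 0.32 that narrowly missed the threshold (limma adjusted p = 0.0646; 95% interval 0.70 to 2.17). With the pair as a block the adjusted p was 3.84e-05. The labelled-deficient signal was 3.31 times its partner in pair 1 and 2.29 times in pair 2.

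The second Smad7 probe set went the same way with the order of the pairs turned. This one, 1443771_x_at, whose suffix marks probes that may also match other transcripts, read 403 and 251 against 938 and 1953. Its ratios were 2.33 in pair 1 and 7.77 in pair 2, and its difference was 2.03 ± 0.40 (limma adjusted p over probe sets = 0.0612, and 0.00783 with the block). On the mean of both probe sets Smad7 was called (1.73, adjusted p = 0.0165). Omitting wild-type replicate 1 (0.0180) or labelled-deficient replicate 2 (0.0306) also gave a call, but omitting labelled-deficient replicate 1 did not (0.332).

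The corepressor gene Ski, whose protein binds SMAD complexes and recruits histone deacetylases, was higher on the labelled-deficient arrays on both probe sets without being called. Probe set 1426373_at read 1155 and 843 in wild-type and 2234 and 1617 in labelled-deficient cells, and 1429192_at read 2075 and 2102 against 3258 and 2561. The labels did not overlap on either. The first gave ratios of 1.93 and 1.92 in the 2 pairs and a difference of 0.93 ± 0.28 over probe sets (limma adjusted p = 0.214, and 0.0147 with the block). The second, from which the gene was read, gave 0.46 ± 0.21 (adjusted p = 0.434, and 0.0742 with the block).

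Skil, the close relative of Ski and itself a TGF-beta target, differed less. Its bright probe set read 4270 and 3953 in wild-type and 5321 and 4010 in labelled-deficient cells, and the labels overlapped. The difference was 0.17 ± 0.21 (limma adjusted p = 0.864; 95% interval -0.32 to 0.66). The dim one, 1422054_a_at, read 90.1 and 98.8 against 169 and 122 without overlap (0.53 ± 0.35, adjusted p = 0.730).

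**Figure D2:**
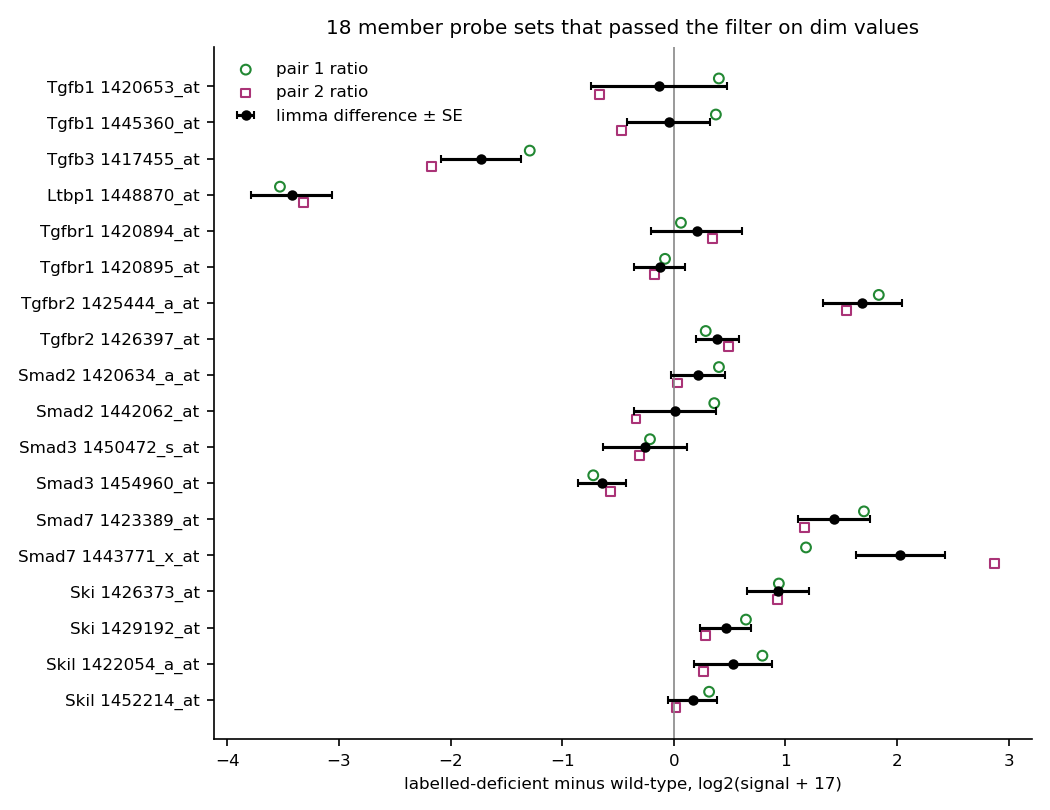
Difference of labelled-deficient minus wild-type on the log2(signal + 17) scale for the 18 member probe sets that passed the filter on dim values; black points are the limma difference with its SE, open circles and squares the ratios within pair 1 and pair 2. Ltbp1 stands at -3.42 and Tgfb3 at -1.73, both Smad7 probe sets lie above 1, and the 2 pair ratios lie on opposite sides of 0 for both Tgfb1 probe sets.

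Seen by probe set, 18 of the 23 passed the filter on dim values and 5 did not: 2 of Ltbp1 and 1 each of Tgfbr1, Tgfbr2 and Smad3. Of the 18, 2 passed through the arrays of 1 label only, the bright one of Ltbp1 and the dim one of Tgfbr2, so that their calls are a description. In the fit over all 27022 probe sets that passed, 1 member probe set was called, that of Ltbp1, where 1.16% of all probe sets were. With the pair as a block 6 were called, where 5.13% of all were (2.52% higher and 2.61% lower): those of Ltbp1 and Tgfb3 lower, and both of Smad7, 1 of Ski and the dim one of Tgfbr2 higher. The labels did not overlap on 11 of the 18, against 38.3% of all probe sets that passed.

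Other marker signals moved with the labels. Macrophage and monocyte markers summed to 5828 to 8852 on the wild-type and 9574 to 13585 on the labelled-deficient arrays. Of 9 tested, 8 lay above 0 and 0 were called by limma. At an unadjusted limma p under 0.05, 3 were higher, where 5.93% of all genes were. With the block 4 were called higher (Csf1r, Adgre1, C1qb and C1qc), where 5.23% of all genes were. Itgam read at most 36.1. Proliferation genes summed to 49572 to 51566 against 20343 to 26526, with 5 of 9 called lower by limma, where 1.35% of all genes were. These were Mki67, Cdk1, Aurkb, Rrm2 and Ccna2, lower by 1.02 to 1.50 on the log2 scale. All 9 proliferation genes were lower at an unadjusted limma p under 0.05, where 7.05% of all genes were. With the block 9 were called lower, where 6.36% of all genes were. Without overlap 9 were lower, where 21.1% of all genes were. B cell markers summed to 2762 and 967 against 3050 and 2020, and this sum was higher on the labelled-deficient array within each pair. In pair 1, however, Cd79a (197 to 163), Cd79b (941 to 784) and Cr2 (245 to 146) were lower on that array. Ms4a1 (1081 to 1611), Blk and Ebf1 were higher there. The difference over both pairs was above 0 for 6 of 6 tested, with 0 called by limma and 0 at an unadjusted p under 0.05. Ms4a1 was called higher with the block (limma adjusted p = 0.00494). Summed signals overlapped between the labels for natural killer cell markers, of which 1 of 6 was tested (396 to 1277 against 1021 to 1295). They also overlapped for CD8 T cell markers (367 to 518 against 423 to 663) and endothelial markers (445 to 553 against 520 to 633). Of 5 endothelial markers tested, 0 were called with or without the block. Without overlap 1 was higher and 2 were lower, where 20.0% and 21.1% of all genes were. Pecam1, at 230 and 147 against 338 and 306, was the 1 higher at an unadjusted limma p under 0.05, where 5.93% of all genes were. The part of these cells and of cell division in the values of Smad7, Ski, Smad3, Tgfb3 and Ltbp1 was not tested.

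Beyond the 10 members, 59 further genes of the wider TGF-beta and BMP pathway were listed, and 49 could be tested. One of them, Hipk2, rose and 0 fell by limma, where 1.21% of all genes were called higher; 33 of the 49 lay above 0, and their median difference was 0.16. With the pair as a block 8 were called higher and 1 lower, where 5.23% and 6.36% of all genes were. Hipk2, a nuclear kinase that works with SKI and SMAD complexes, read 1016 and 990 in wild-type and 2791 and 2573 in labelled-deficient cells (1.40 ± 0.21, adjusted p = 0.0200). Its 6 tested probe sets disagreed: 1456022_at differed by 1.50, and the other 4 by between -0.25 and 0.35.

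By role, the ligand, latency and activation genes had a median difference of -0.24 over 10 tested genes and 0 calls by limma. At an unadjusted limma p under 0.05, 1 was higher and 1 lower, where 5.93% and 7.05% of all genes were. Itgav, the integrin chain through which latent TGF-beta is activated, read 5045 and 7112 against 3598 and 3711 (-0.71 ± 0.22; limma adjusted p = 0.176, and 0.00585 with the block). Its partner gene Itgb8 went the other way, from 599 and 732 to 1274 and 930 (0.70 ± 0.27; adjusted p = 0.290, and 0.0316 with the block). The labels did not overlap on either. Nrros, which like LTBP1 binds latent TGF-beta, read 2944 and 2414 against 2409 and 2078 (-0.25 ± 0.22, adjusted p = 0.775), and Furin, whose protease cleaves the TGF-beta propeptide, 767 and 508 against 570 and 340 (-0.49 ± 0.34, adjusted p = 0.683). Among the Ltbp1 relatives, Ltbp3 (-0.23) and Ltbp4 (-0.35) were dim and not called, and Ltbp2 read at most 17.6. Tgfb2, the remaining TGF-beta isoform, read at most 67.7.

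The other receptor genes had a median of 0.21 over 10 tested genes, with 0 calls by limma and 0 at an unadjusted p under 0.05. Tgfbr3, the coreceptor betaglycan, read 1742 and 2216 against 2334 and 3630 (0.56 ± 0.27; limma adjusted p = 0.459, and 0.0256 with the block). All of the 3 other SMAD genes tested lay above 0 on their brightest probe sets with no overlap between the labels. Of all genes, 20.0% were higher without overlap. By limma without the block 0 were called, and 2 were higher at an unadjusted p under 0.05, where 5.93% of all genes were. Smad5 read 434 and 662 against 911 and 1260 (0.98 ± 0.30; adjusted p = 0.176, and 0.00187 with the block). Smad1, which like Smad5 carries BMP signals, read 746 and 566 against 1039 and 1120 (0.72 ± 0.25; 0.246 and 0.0212). The other probe sets of these genes disagreed. Smad5 1421047_at (1.04) and Smad1 1459843_s_at (0.86) did not overlap. Smad5 1451873_a_at, at 262 and 294 against 317 and 293 (0.13), and Smad1 1416081_at, at 123 and 30.9 against 139 and 59.1 (0.41), did. Smad4, the shared partner, differed by 0.34 ± 0.20 (adjusted p = 0.597). Smad6 and Smad9 read at most 36.6 and 14.4.

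The 26 genes for regulators of SMADs and receptors had a median of 0.16. Besides Hipk2, the block called Nedd4l, a ubiquitin ligase that acts on activated SMADs (334 and 329 against 672 and 622; 0.93 ± 0.25, limma adjusted p = 0.125 without and 0.00908 with the block), Tgif1, a SMAD corepressor (1.14 ± 0.43; 0.285 and 0.0133), and Ldlrad4, which holds SMADs away from the receptor (1.05 ± 0.34; 0.195 and 0.0345). The ligase genes Smurf1 and Smurf2, whose products SMAD7 brings to the receptor, differed by 0.78 ± 0.39 and -0.13 ± 0.26 (adjusted p = 0.483 and 0.938).

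Genes known to respond to TGF-beta did not move as 1 group. Of 12 tested genes that TGF-beta raises in T cells or elsewhere, 1 rose and 1 fell, with a median difference of -0.11. Over all genes 1.21% were called higher and 1.35% lower. With the block 4 were higher and 1 lower, where 5.23% and 6.36% of all genes were. Nt5e, which encodes the ectonucleotidase CD73, rose from 768 and 734 to 2948 and 2398 (1.80 ± 0.23, limma adjusted p = 0.0106). Its dim second probe set, at 15.8 and 11.5 against 217 and 142, passed the filter only through its labelled-deficient arrays. Tgfbi, a matrix protein gene named for its induction by TGF-beta, read 577 and 253 against 911 and 804 without overlap (1.12 ± 0.38; adjusted p = 0.229, and 0.00346 with the block). Cdkn1a, a cyclin-dependent kinase inhibitor, fell from 498 and 678 to 173 and 123 (-1.87 ± 0.31, adjusted p = 0.0288). The integrin gene Itgae (CD103), a TGF-beta target of T cells, read 2816 and 5849 against 3335 and 3777 and overlapped (-0.19 ± 0.33, adjusted p = 0.922). Pmepa1, a feedback inhibitor, read 1451 and 1272 against 1270 and 687 (-0.53 ± 0.32, adjusted p = 0.599). This list shares Pmepa1, Ldlrad4 and Tgif1 with the regulators above.

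Of 10 tested genes that TGF-beta lowers in T cells, 5 fell and 0 rose, with a median difference of -1.51. Over all genes 1.35% were called lower and 1.21% higher. With the block 6 were lower and 1 higher, where 6.36% and 5.23% of all genes were. The 5 were the granule protease genes Gzma (-4.68) and Gzmb (-3.51), the cytokine gene Ifng (-2.75) and the transcription factor genes Tbx21 (-2.17) and Eomes (-1.82), with limma adjusted p values between 0.000396 and 0.0200. Fasl, a death ligand, read 1494 and 2012 against 689 and 798 (-1.21 ± 0.25, adjusted p = 0.0538). Gata3 and Prf1 were not called (0.37 ± 0.28 and -0.31 ± 0.38), and Myc, which TGF-beta represses in many cells, lay above 0 (0.93 ± 0.25; adjusted p = 0.114, and 0.000774 with the block). These genes also belong to Th1 and cytotoxic programmes and were known to differ in these data when the list was written, so their count is no independent evidence about TGF-beta signalling.

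**Figure D3:**
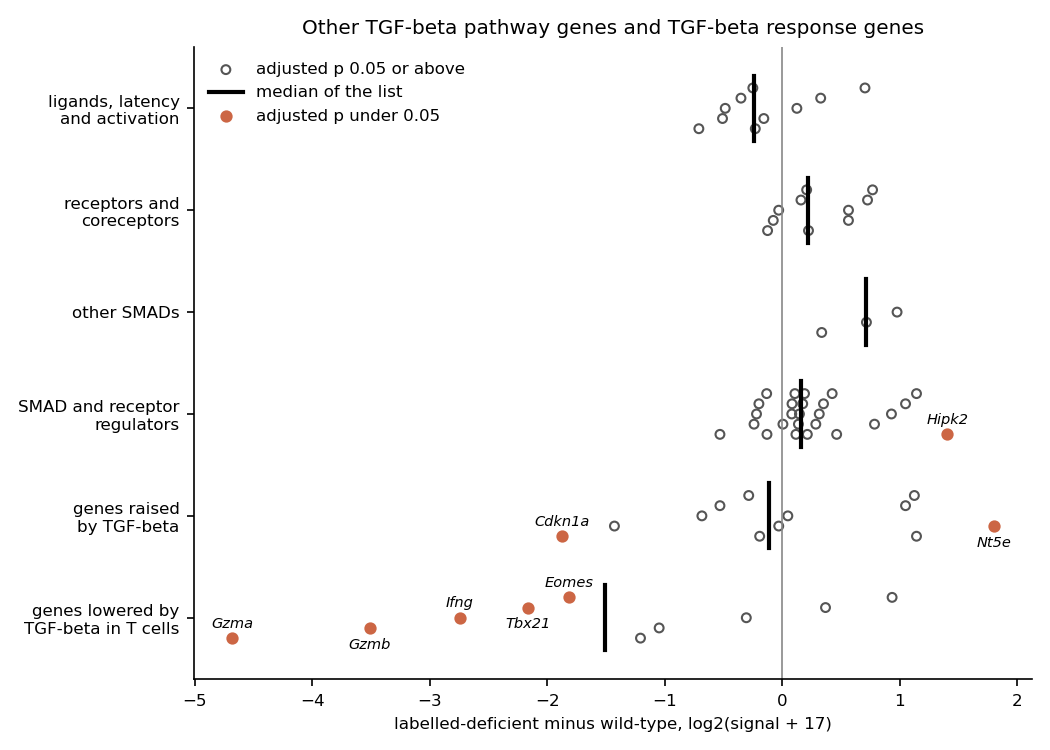
Difference of labelled-deficient minus wild-type on the log2(signal + 17) scale for every tested gene of 4 lists of other TGF-beta pathway genes and 2 lists of TGF-beta response genes; filled points have a limma adjusted p under 0.05, and bars are list medians. Among the 4 pathway lists Hipk2 alone is filled, at 1.40, and 5 genes of the list lowered by TGF-beta are filled, from -4.68 to -1.82.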

How the data were processed

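The authors deposited linear intensities per probe set from MAS5, per the submitters' processing notes, version not stated; RNA was labelled with biotin per the labels' protocols. MAS5 subtracts background and scales each array, so no further scaling was applied. Detection calls were not analysed here, and the number of arrays limits the precision. Log2(signal + 17) was computed, 17 being the rounded 25th percentile over the whole table; 64 array controls were removed and probe sets whose mean lay under the 40th percentile were left out. Platform symbols, which can be old, named 34945 probe sets singly, 932 with several genes and 9160 not at all. Probe sets with several symbols or none were not read for any gene, but those that passed the filter stayed in the fit over probe sets. Symbols were updated through RefSeq (GRCm38.p6). The labels were compared in R 4.3.3 using limma 3.58.1 (lmFit and eBayes with an intensity trend, two-sided; 2 residual and 5.69 prior degrees of freedom), and the script was tested on simulated data. The fit without the pair was the main one. With the pair as a block fewer residual degrees of freedom are left, so small p-values of that fit do not measure each gene's agreement within pairs. The pairing comes from the titles, and same-numbered arrays deviated together from their label's mean (r = 0.367 across genes, which are not independent replicates). Named were the 10 members, called genes of each list and genes called with the block in the lists of the pathway, its responses and other cell types, the last and some further list genes chosen after their values were seen. The members and lists were chosen with earlier results of these data known. Alternatives were other pseudocounts and filters, quantile normalization, no trend, the pair as a block, leaving out each array, and other ways to combine probe sets.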

Additional observations from a re-analysis of the deposited data

How the results depend on the processing

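Calls rest on 2 arrays a group. Without any 1 array, called members numbered 0 to 1 higher and 1 to 2 lower; member probe sets 0 to 1 and 1 to 2; other pathway genes 0 to 2 higher; genes raised by TGF-beta 1 to 2 higher and 0 to 1 lower. With the replicate block (the pairing of the titles), members called were 1 higher and 3 lower, member probe sets 4 higher and 2 lower, other pathway genes 8 higher and 1 lower, genes raised by TGF-beta 4 higher, and genes lowered by it 1 higher; it ended no call of a member. Members called lower were 1, not 2, with a pseudocount of 1 or 76, without the filter, with the filter at the 60th percentile, without the trend and on the first-listed probe sets; the strict filter leaves out Ltbp1, and in the others Tgfb3 was lost (adjusted p from 0.0502 to 0.147). Members called higher were 2 on the mean of probe sets. Member probe sets called lower were 0 without the filter (Ltbp1 adjusted p = 0.0590) and with the strict one. Other pathway genes called higher were 0 without the trend, on first-listed probe sets and on their mean, where Hipk2 stood at 0.35 (adjusted p = 0.889) and 0.54 (0.497), and without either labelled-deficient replicate (0.0995 and 0.0660). Genes raised by TGF-beta called lower were 0 without the filter and without the trend, where Cdkn1a had adjusted p values of 0.0907 and 0.0571; it was also lost without labelled-deficient replicate 2 (0.0838). Eomes was lost without that array (0.0544), without the filter (0.0540) and without the trend (0.0520). Signs turned for Tgfb1 (-1.12 to 0.85 without 1 array; its second probe set -0.36 to 0.26), Tgfbr1 (-0.33 to 0.077; 0.21 on the first-listed probe set and 0.040 on the mean; its dim probe set -0.076 to 0.49), Skil (-0.035 to 0.37) and the second Smad2 probe set (-0.39 to 0.42; -0.00034 with the pseudocount of 76 and -0.078 under quantile normalization). Except where a setting's own construction shows it, the cause was not tested. Counts of members higher or lower in both pairs (5 and 4) stayed under each scaling tried.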

Other observations

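Some signals differed between the pair numbers about as much as between the labels, or more. These were picked after their values were seen, and their differences between the pairs were not tested. Junb, an AP-1 gene that TGF-beta induces, read 1362 and 1438 on the wild-type and labelled-deficient arrays of pair 1 and 455 and 284 on those of pair 2. C1qc, a complement gene of macrophages, read 559 and 1211 in pair 1 and 170 and 465 in pair 2. Its pair 1 signal was 3.29 times that of pair 2 on the wild-type and 2.61 times on the labelled-deficient arrays. The labelled-deficient signal was 2.17 times its partner in pair 1 and 2.73 times in pair 2, and C1qc was called higher with the block (limma adjusted p = 0.000915). The brighter Tgfb1 probe set was also lower in pair 2 under both labels; the dimmer one was not.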
